A study of Mus musculus with 19 samples.

Results

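Regional patterning of the embryonic brain was followed through 8 transcription factor genes, Emx1, Emx2, Lhx2, Dlx1, Dlx2, En1, En2 and Gbx2, which were chosen by name as factors that mark forebrain, midbrain and anterior hindbrain. Each was matched by its symbol to 1 Ensembl gene, so that the 8 genes were taken from 41388 genes counted in every sample. The study asked what happens in mouse neural tissue when 1 copy of Wiz, which encodes a zinc finger partner of the G9a/GLP histone methyltransferases, carries the ENU-induced MommeD30 mutation. PolyA RNA was sequenced from whole brains of male embryos at 13.5 days post coitum (E13.5; 3 Wiz+/+ and 3 Wiz MommeD30/+), whole brains of female embryos of the same age (2 and 2), and cerebellums of males of 56 days post partum (3 and 3). All 16 samples came from FVB mice of the Line3 strain, in which Wiz+/+ animals carry the same GFP transgene, under erythroid promoter elements, as Wiz MommeD30/+ animals. The embryos came from heterozygous intercrosses, and Wiz MommeD30/+ animals keep 1 wild-type copy of Wiz. The total count per sample ran from 16386029 in male Wiz+/+ brain 2 to 50459755 in male Wiz+/+ brain 1.

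The vertebrate neural tube is divided along its length by transcription factors that are switched on in restricted territories and hold them against their neighbours. Emx1, Emx2 and Lhx2 are homeodomain and LIM-homeodomain factors of the dorsal telencephalon, from which cortex and hippocampus arise. Dlx1 and Dlx2 are linked homeodomain genes of the ganglionic eminences, where GABAergic neurons are born. En1 and En2 are the Engrailed genes of the midbrain and of the first segment of the hindbrain, which gives rise to the cerebellum, and Gbx2 sets the hindbrain side of the boundary between them, with a later domain in the thalamus. In a bulk sample, fewer cells of a type and less RNA per cell cannot be told apart, so each level below is an average over a whole brain or cerebellum.

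In the GRCm38 annotation, Emx1 (ENSMUSG00000033726) lies on chromosome 6 from 85187438 to 85204462, Emx2 (ENSMUSG00000043969) on chromosome 19 from 59458372 to 59465357, and Lhx2 (ENSMUSG00000000247) on chromosome 2 from 38339281 to 38369733. Dlx1 (ENSMUSG00000041911) and Dlx2 (ENSMUSG00000023391) are neighbours on chromosome 2, from 71528113 to 71533981 and from 71543408 to 71546754, on opposite strands. En1 (ENSMUSG00000058665) lies on chromosome 1 from 120602418 to 120607992, En2 (ENSMUSG00000039095) on chromosome 5 from 28165694 to 28172166, and Gbx2 (ENSMUSG00000034486) on chromosome 1 from 89927956 to 89931179. Exons of antisense genes cover 8.79% of the exon bases of Emx2 (Emx2os), 6.21% of those of Dlx1 (Dlx1as) and 43.5% of those of Gbx2 (D130058E05Rik). The strand setting of the count was not given in the sources used here, so reads of a gene and of its antisense partner cannot be told apart over those bases. In the brains these partners reached at most 3.88, 11.8 and 2.41 CPM (the usual scaling of a count by its library total, here adjusted by TMM, the trimmed mean of M-values of edgeR).

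The labels were checked first. Wiz had 172.6 to 189.9 CPM in male Wiz+/+ brains and 111.7 to 119 CPM in male Wiz MommeD30/+ brains, 175.8 to 183.8 against 119.9 to 121.7 CPM in female brains, and 104.4 to 105.3 against 73.1 to 74.7 CPM in cerebellums. Summed over 9 adult cerebellum markers, the level was 8780 to 9020 CPM in cerebellums and 98 to 114 CPM in brains, while 6 embryonic neural markers summed to 4341 to 4635 CPM in brains and 700.2 to 794.7 CPM in cerebellums. The brains differed in how much caudal tissue marker they held. Of 7 Hox genes of the spinal cord, Hoxc10 and Hoxd10 had no count in any brain, and the sum of the list ran from 14.5 CPM in female Wiz+/+ brain 1 to 190 CPM in female Wiz+/+ brain 2, a 13.2-fold range. Hoxb9 alone had 2.17 and 77.7 CPM in those 2 brains. Replicates were not copies of 1 library: the chi-square over genes, divided by its degrees of freedom, was 3.41 to 5.05 for pairs of male brains, 10.3 for the female Wiz+/+ pair and 11.2 for the female Wiz MommeD30/+ pair.

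Measured per length of exon, which allows levels of different genes to be compared, the order in E13.5 brain was Lhx2, Dlx1, Dlx2, Emx2, En2, Gbx2, Emx1 and En1. Lhx2 had 36.7 ± 6.02 CPM per kb of exon (SD, n = 10), Dlx1 28.6 ± 4.97 and Dlx2 22.1 ± 4.11, and the steps between these and down to Emx2 exceeded the SDs. Emx2 (10.9 ± 1.85), En2 (9.79 ± 1.79) and Gbx2 (9.23 ± 1.81) lay within 1 SD of each other. Emx1 had 6.68 ± 2.18 CPM per kb and En1 5.51 ± 1.01, which also differed by less than their spread. These are means over all 10 brains, and the order of near neighbours differed between groups: in the male Wiz+/+ brains Emx1 (8.57 ± 1.39 CPM per kb, SD, n = 3) stood above Gbx2 (7.69 ± 1.34), within their spread. Dlx1 stood above Lhx2 in female Wiz+/+ brain 1 (35.8 against 29.3 CPM per kb) and in female Wiz MommeD30/+ brain 2 (35.2 against 34.5). The order also depended on the length used: per kb of the longest transcript, Emx1 (13.1) stood above Emx2 (12.1) in male Wiz+/+ brain 1.

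The summed level of the 5 forebrain factors exceeded that of the 3 midbrain and anterior hindbrain factors in every brain. The forebrain sum was 104.1, 120.7 and 104.8 CPM per kb in the male Wiz+/+ brains, 101.7, 108.9 and 111.4 in the male Wiz MommeD30/+ brains, 106.1 and 70.2 in the female Wiz+/+ brains, and 109.2 and 113.1 in the female Wiz MommeD30/+ brains. The sum of En1, En2 and Gbx2 was 19.5, 24.6 and 22.3 CPM per kb, then 26.2, 24.1 and 21.3, then 29.9 and 29.5, then 22.4 and 25.7 in the same order. Female Wiz+/+ brain 2 stood apart with the lowest forebrain sum, and both female Wiz+/+ brains had the highest En and Gbx2 sums. The ratio of the sums had a median of 4.62 and ran from 2.38 in female Wiz+/+ brain 2 to 5.34 in male Wiz+/+ brain 1. Forebrain factors made up 80.8% ± 4.12 (SD, n = 10) of the summed level. Since Gbx2 also has a domain in the thalamus, these are sums over named genes and not measures of how much of each region was sampled. Female Wiz+/+ brain 2 was also the brain with the most spinal Hox RNA. The part of tissue content in the values of this brain was not tested.

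**Figure D1:**
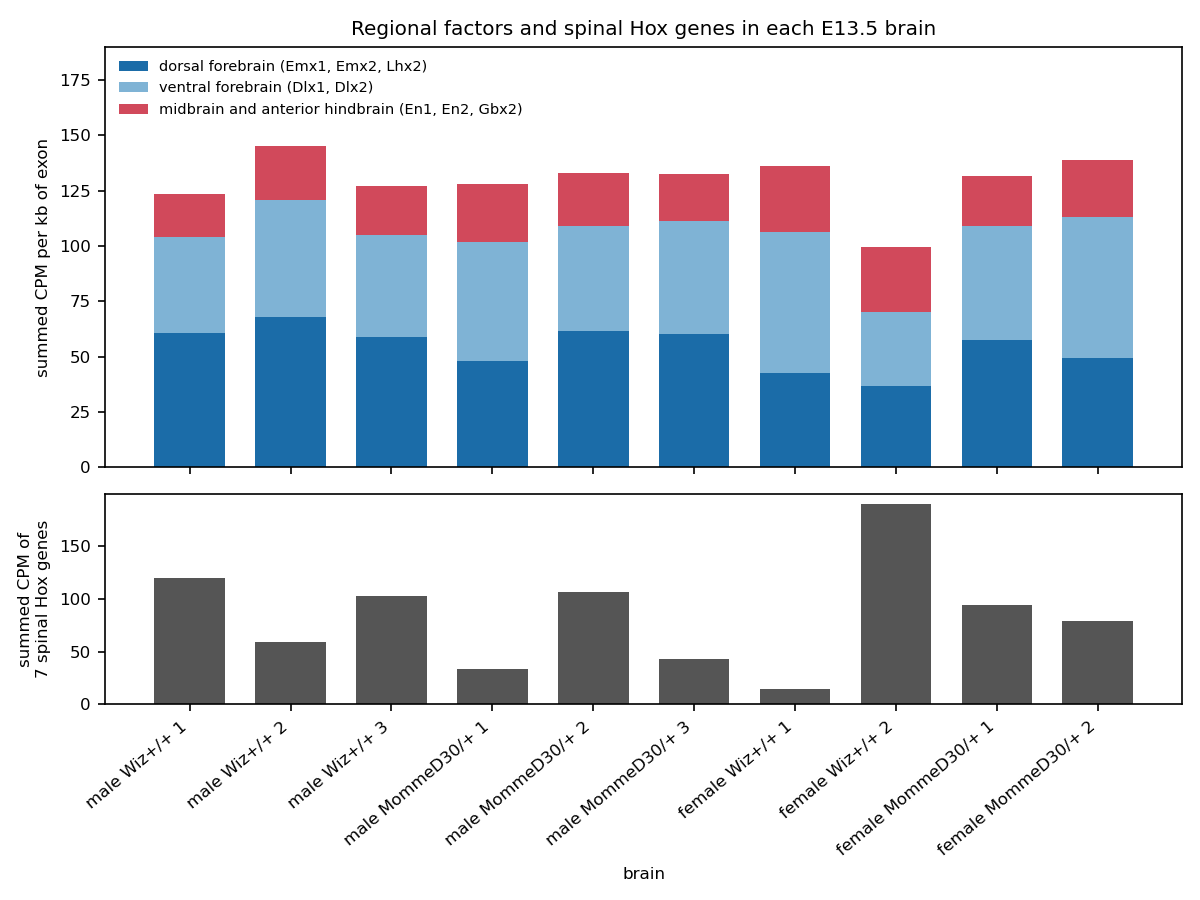
Bars give, for each of the 10 E13.5 brains, the summed CPM per kb of exon of the dorsal (Emx1, Emx2, Lhx2) and ventral (Dlx1, Dlx2) forebrain factors and the midbrain and anterior hindbrain factors (En1, En2, Gbx2), and the summed CPM of 7 spinal cord Hox genes. Female Wiz+/+ brain 2 has the lowest forebrain sum (70.2) and the highest Hox sum (190).

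Dorsal and ventral forebrain factors did not vary alike from brain to brain. The dorsal sum (Emx1, Emx2, Lhx2) was 58.7 to 68 CPM per kb in the male Wiz+/+ brains and 36.5 and 42.5 in the female Wiz+/+ brains, and these groups did not overlap. The ventral sum (Dlx1, Dlx2) was 43.6 to 52.6 CPM per kb in the male Wiz+/+ brains and 63.6 and 33.7 in the female Wiz+/+ brains, which lay on either side of the males. Lhx2, which acts as a selector of cortical identity and is the largest term of the dorsal sum, had 172.9, 199.5 and 175.4 CPM in male and 128.8 and 114.1 CPM in female Wiz+/+ brains. Dlx1 had 136.7, 162.4 and 142.2 CPM in male and 192.9 and 101.8 CPM in female Wiz+/+ brains. The highest and the lowest Dlx1 levels of all 10 brains were thus those of the 2 female Wiz+/+ brains, which are replicates of each other.

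**Figure D2:**
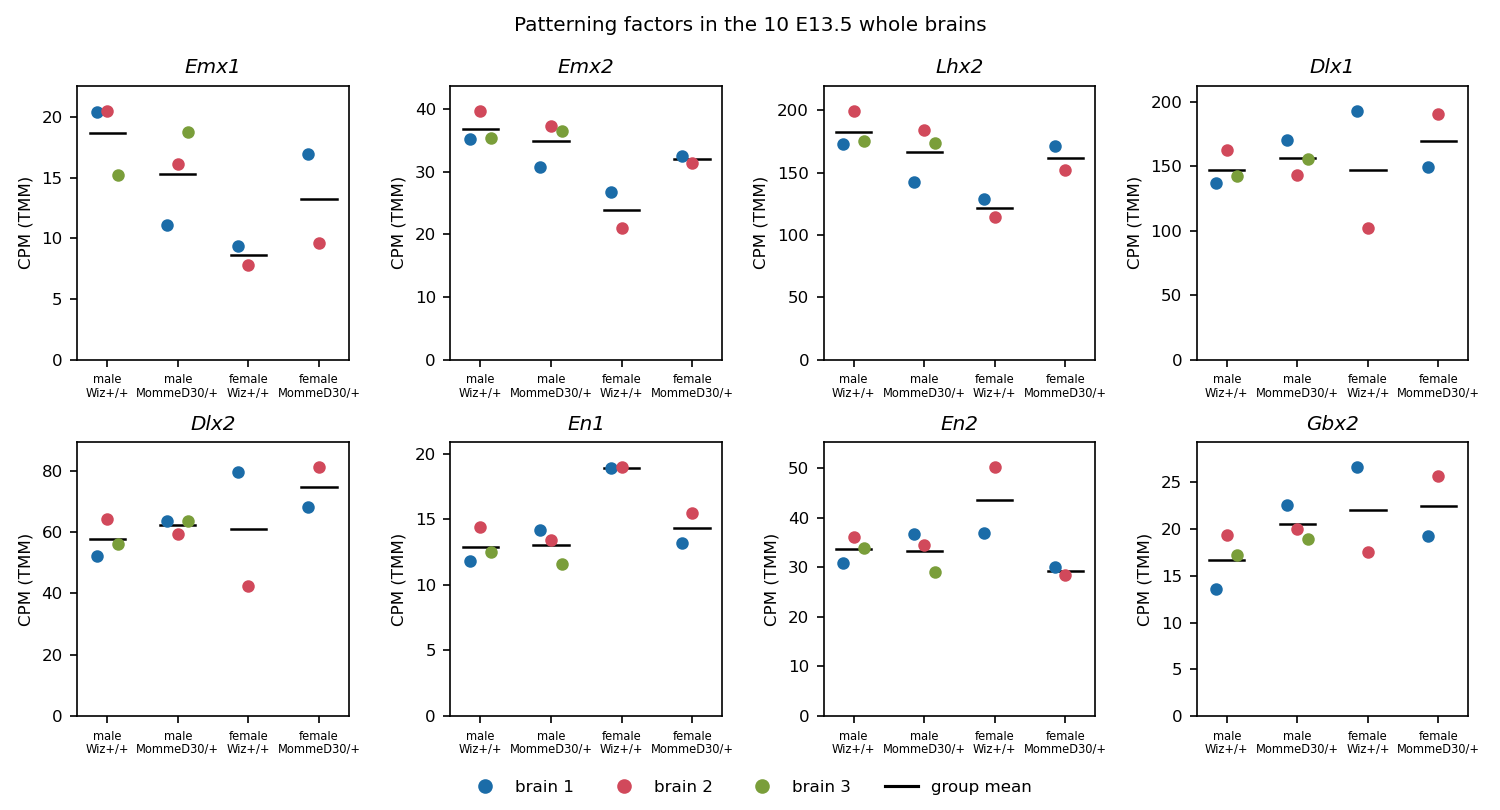
CPM (TMM-scaled, linear axes from 0) of each of the 8 factors in the 10 E13.5 brains, by sex and genotype, with points for single brains and lines for group means. Emx2 and Lhx2 were lower in both female Wiz+/+ brains than in every other brain, and Dlx1 and Dlx2 spread widely in the same group.

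Replicate variation differed between the factors. The SD of log2 CPM around the means of the 4 sex and genotype groups (10 brains, 6 residual degrees of freedom) was 0.363 for Emx1, 0.303 for Dlx1, 0.288 for Dlx2 and 0.269 for Gbx2. It was 0.178 for En2, 0.148 for Lhx2, 0.145 for Emx2 and 0.139 for En1. The median over 17332 genes tested was 0.0896, and over the 10429 of them with at least 10 CPM it was 0.0607, so each of the 8 varied more than the median gene. Emx1 stood at the 91.7th percentile and En1, the least variable of the 8, at the 66.6th. Counting alone gives an SD of 0.0183 (Lhx2) to 0.0625 (Emx1), below the measured SD of each factor. Without female Wiz+/+ brain 1 or 2, which leaves no spread in that group, the SD fell to 0.159 for Dlx1 and 0.131 for Dlx2.

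Deviations of the ventral factors were alike between replicates, though no pair of factors passed the test after adjustment. The permutations were too few for 1 pair alone to pass it, so this failure cannot decide whether a pair is related. Deviations from the group means, in log2 CPM over the 10 brains, had a Pearson's r of 0.98 and a Spearman's rho of 0.95 for Dlx1 and Dlx2 (exact permutation within groups, unadjusted p = 0.00694 each, the smallest that 144 permutations can give, and adjusted p = 0.0972 over the 28 pairs of factors). The female Wiz+/+ brains lay farthest out, and r was 0.92 without them. For Emx2 and Lhx2, r was 0.89 and rho 0.79 (exact permutation, unadjusted p = 0.00694, adjusted p = 0.0972), with r = 0.96 without the female Wiz+/+ brains. Gbx2, the hindbrain factor with a later domain in the thalamus, had deviations like those of the Dlx genes (r = 0.88 and rho = 0.90 with Dlx1, exact permutation p = 0.0347 and 0.0486, adjusted p = 0.243 and 0.272; r = 0.86 without the female Wiz+/+ brains). En1 and En2 had an r of 0.52 and a rho of 0.61 (exact permutation p = 0.0903 and 0.0486, adjusted p = 0.316 and 0.272), and r was 0.28 without male Wiz+/+ brain 2 and male Wiz MommeD30/+ brain 3.

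**Figure D3:**
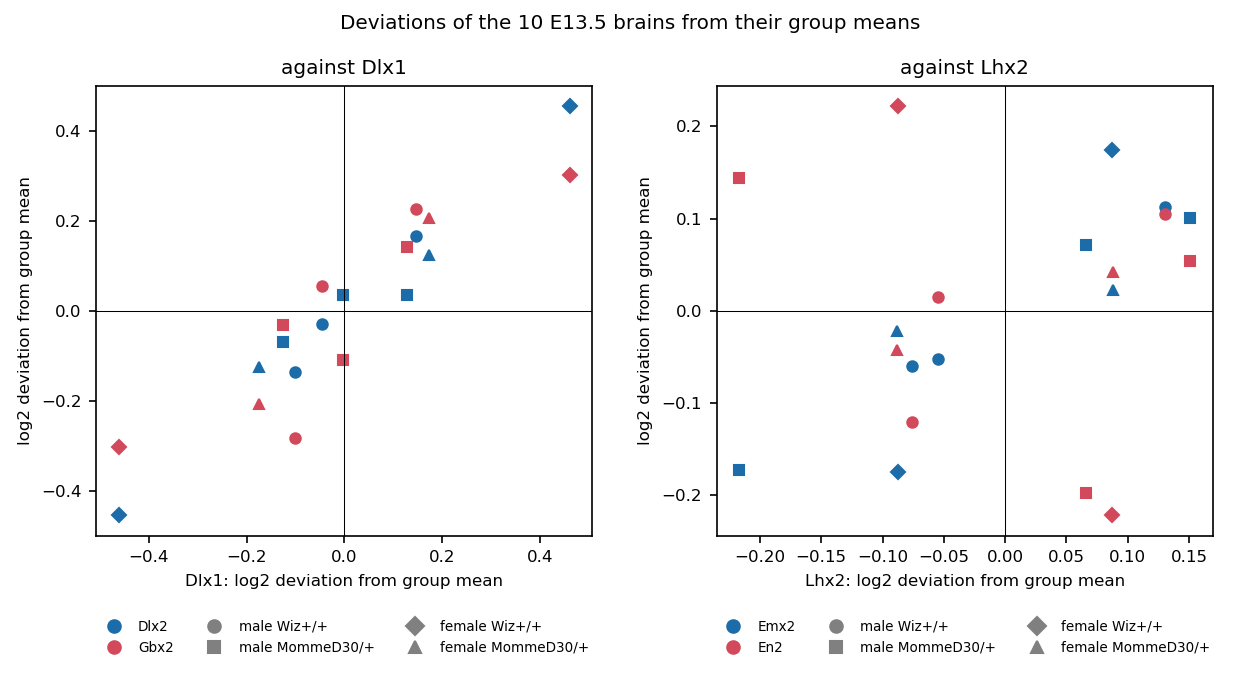
Log2 deviation of each of the 10 E13.5 brains from the mean of its sex and genotype group, for Dlx2 and Gbx2 against Dlx1 (left) and Emx2 and En2 against Lhx2 (right). Dlx2 follows Dlx1 (r = 0.98) and Emx2 follows Lhx2 (r = 0.89), while En2 shows no such line against Lhx2 (r = -0.29).

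Genes whose deviations were most like those of each factor were ranked by r over the same 10 brains among 14513 genes with a mean of at least 1 CPM, as a description, since genes measured in the same libraries share their depth and tissue content. Picking the highest of 14513 values over 10 brains also favours a high r, whether or not the genes are related. Among the 3 genes nearest to Dlx1 were Lhx6 (r = 0.997), a factor of medial ganglionic eminence interneurons, and Dlx6 (0.990), and among the 3 nearest to Dlx2 were Nr2f1 (0.995) and Lhx6 (0.987). Lhx6 and Dlx6 are in the ventral forebrain list used here and Nr2f1 is in the dorsal list. Gbx2 was nearest to Nkx2-3 (0.986), Oxnad1 (0.984) and Iqcg (0.984). The genes nearest to the dorsal factors were of other kinds: Ptgfrn (0.995), Pdk2 (0.983) and Elmo2 (0.981) for Emx1, Wrap53 (0.989), Ints7 (0.970) and Cenpn (0.969) for Emx2, and Marcksl1 (0.975), Cacng8 (0.972) and Fam57a (0.969) for Lhx2. En1 was nearest to Rpap2 (0.982), Ckap4 (0.974) and Gm20457 (0.973), and En2 to 1810010H24Rik (0.989), Acsf3 (0.961) and 5033417F24Rik (0.958).

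In male embryos, no factor of the 8 was called between genotypes. Under edgeR's quasi-likelihood test (a call needed an adjusted p no higher than 0.05 and a fold below 0.7 or above 1.3) 0 of 8 were called, beside 0.184% of 16848 genes, and DESeq2's Wald test also called 0. At an unadjusted p of at most 0.05 stood 1 of 8, beside 8.45% of all genes. That gene was Gbx2, with 13.6, 19.4 and 17.2 CPM in Wiz+/+ and 22.6, 20 and 19 CPM in Wiz MommeD30/+ brains, a log2 fold change of 0.33 (SE 0.108, edgeR adjusted p = 0.421). Its fold of 1.26 lay within the fold limits. Over the alternative fits with edgeR or DESeq2 its adjusted p ran from 0.00734 to 0.999, and none called it. With single brains left out the edgeR adjusted p ran from 0.172 to 0.999. The genotypes overlapped for each of the 8 factors, beside 12.4% of 14501 genes of at least 1 CPM that did not overlap. Emx1 had 20.4, 20.5 and 15.2 CPM in Wiz+/+ and 11.1, 16.1 and 18.8 CPM in Wiz MommeD30/+ brains, and Lhx2 172.9, 199.5 and 175.4 against 142.6, 184 and 173.4 CPM. In both, Wiz MommeD30/+ brain 1 was the lowest of the 6 and Wiz+/+ brain 2 the highest. Emx2 had 35.3, 39.7 and 35.4 against 30.8, 37.3 and 36.5 CPM, Dlx1 136.7, 162.4 and 142.2 against 170.4, 142.9 and 155.6 CPM, and Dlx2 52.2, 64.3 and 56.3 against 63.7, 59.2 and 63.7 CPM. The Engrailed genes were closest between genotypes, with En1 at 11.8, 14.4 and 12.5 against 14.2, 13.4 and 11.6 CPM and En2 at 30.8, 36.1 and 33.9 against 36.7, 34.5 and 28.9 CPM. Emx1 had the widest interval, with a log2 fold change of -0.29 and a 95% interval of -0.64 to 0.07, and for Dlx1 the interval was -0.05 to 0.24, for En2 -0.17 to 0.19.

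In female embryos, the dorsal factors were higher and the Engrailed genes lower in both Wiz MommeD30/+ brains than in both Wiz+/+ brains, but 0 of 8 factors passed edgeR's quasi-likelihood test, beside 0.111% of 17152 genes called. Lhx2 had 128.8 and 114.1 CPM in Wiz+/+ and 171.4 and 151.7 CPM in Wiz MommeD30/+ brains (log2 fold change 0.41, SE 0.0792, edgeR adjusted p = 0.372). Emx2 had 26.7 and 21 against 32.5 and 31.5 CPM (log2 fold change 0.42, SE 0.112, edgeR adjusted p = 0.773), and Emx1 9.4 and 7.84 against 16.9 and 9.63 CPM (0.62, SE 0.244, edgeR adjusted p = 0.773). En2 had 36.9 and 50.2 CPM in Wiz+/+ and 30.1 and 28.4 CPM in Wiz MommeD30/+ brains (log2 fold change -0.58, SE 0.135, edgeR adjusted p = 0.7). En1 had 18.9 and 19 against 13.2 and 15.5 CPM (-0.40, SE 0.0997, edgeR adjusted p = 0.773). These 5 genes did not overlap between genotypes, beside 36.4% of 14518 genes of at least 1 CPM in this design of 2 against 2, and the same 5 had an unadjusted p of at most 0.05, beside 6.40% of genes tested.

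The ventral factors and Gbx2 overlapped between female genotypes. Dlx1 had 192.9 and 101.8 CPM in Wiz+/+ and 149.3 and 190.1 CPM in Wiz MommeD30/+ brains, a log2 fold change of 0.20 with a 95% interval of -0.39 to 0.80. Dlx2 had 79.5 and 42.3 against 68.3 and 81.2 CPM (0.30, -0.28 to 0.87), and Gbx2 26.6 and 17.5 against 19.3 and 25.6 CPM (0.02, -0.45 to 0.49).

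Whether factors were called in females depended on the test and on single brains. DESeq2's Wald test called 2 of 8, Lhx2 (DESeq2 adjusted p = 0.0013) and En2 (DESeq2 adjusted p = 0.0122), beside 32 (0.226%) of the 14159 genes it gave an adjusted p. Without female Wiz+/+ brain 1, which leaves female Wiz+/+ brain 2 alone in its group and assumes that it varies like the other group, edgeR called 5 of 8: Emx2 (log2 fold change 0.61), Lhx2 (0.50), Dlx1 (0.73) and Dlx2 (0.82) higher and En2 (-0.78) lower, beside 261 (1.48%) of 17588 genes called, in place of 19. Without female Wiz+/+ brain 2 none of the 8 was called, beside 0.228% of 17522 genes, and the log2 fold changes of Dlx1 (-0.18), Dlx2 (-0.09) and Gbx2 (-0.24) changed sign. Spinal Hox genes summed to 14.5 and 190 CPM in the female Wiz+/+ brains and 94.5 and 78.6 CPM in the Wiz MommeD30/+ brains, and the part of caudal tissue in these differences was not tested.

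The difference in genotype effect between the sexes was tested itself. The interaction term called 0 of 8 factors and 0 of 17620 genes (0%) with edgeR's quasi-likelihood test, and DESeq2's Wald test called 0 of 8 and 1 gene in all. The smallest edgeR adjusted p of the 8 was 0.985. An unadjusted p of at most 0.05 was found for 5 of 8, beside 3.98% of all genes. The term, as the female minus the male log2 fold change, was 0.91 for Emx1 (95% interval 0.18 to 1.64), 0.54 for Lhx2 (0.24 to 0.84), 0.49 for Emx2 (0.18 to 0.80), -0.44 for En1 (-0.76 to -0.12) and -0.58 for En2 (-0.95 to -0.21). With both sexes in 1 fit and sex as a covariate, edgeR called 0 of 8 factors, beside 0.352% of 17332 genes, DESeq2's Wald test called 0, and 0 of 8 had an unadjusted p of at most 0.05. En2 came nearest, with a log2 fold change of -0.24 (SE 0.114, edgeR adjusted p = 0.439).

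**Figure D4:**
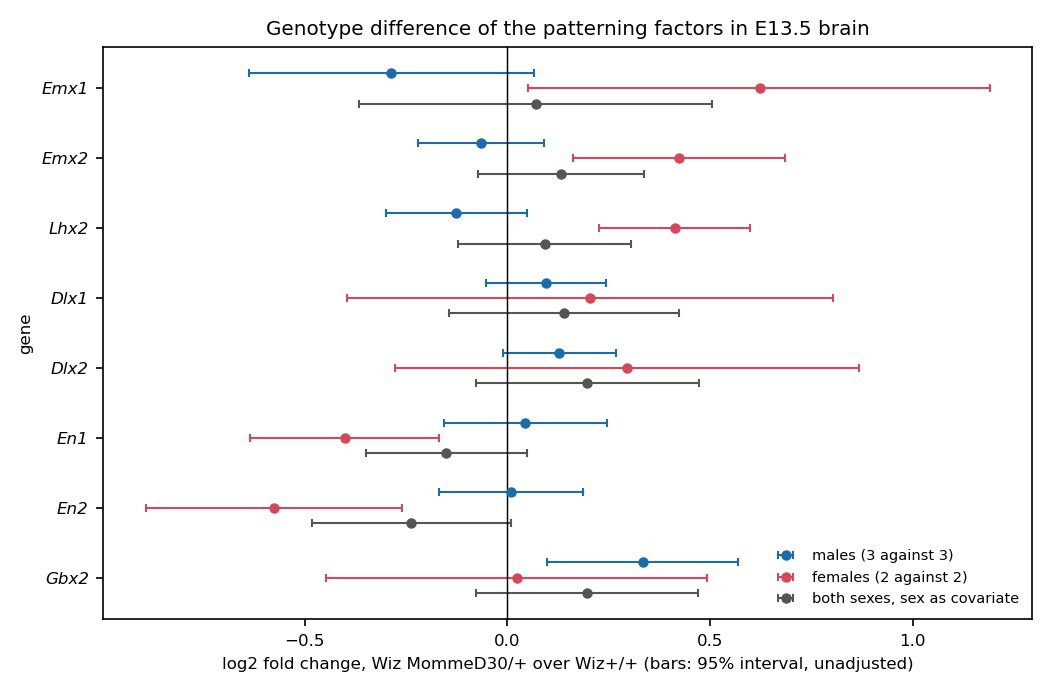
Log2 fold change of Wiz MommeD30/+ over Wiz+/+ E13.5 brains for each factor in males, in females and in both sexes with sex as a covariate, with unadjusted 95% intervals from edgeR. Intervals of the female fit lie off 0 for Emx1, Emx2, Lhx2, En1 and En2, and no factor has an adjusted p of at most 0.05.

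The wider regional lists gave no calls between genotypes. In males, 12 of 14 dorsal forebrain factors lay below 0 (median log2 fold change -0.18), and in females 11 of 14 lay above 0 (median 0.31). Among the most abundant, Bcl11b had a log2 fold change of -0.13 (SE 0.0702) in males and -0.01 (SE 0.0463) in females, and Nr2f1 0.11 (SE 0.0432) and 0.32 (SE 0.129). Of 12 ventral forebrain factors, 10 lay above 0 in each sex (medians 0.14 and 0.14). Isl1 of that list had 0.15 (SE 0.0841) and -0.08 (SE 0.0844). In the diencephalon list, Tcf7l2, a factor of the thalamus, had 0.10 (SE 0.0716) and 0.20 (SE 0.151), Otp 0.18 and -0.10, and Dbx1 -0.08 and -0.23. In the midbrain list, Otx2, which sets the midbrain side of the boundary with Gbx2, had -0.04 (SE 0.0776) and -0.03 (SE 0.163), Nr4a2 0.09 and -0.11, and Tal2 -0.14 and -0.04. Of 14 hindbrain and cerebellar factors, 12 lay below 0 in females (median -0.15), and of the 13 tested in males 6 did (median 0.05). Zic1 had 0.10 (SE 0.0369) and 0.04 (SE 0.0848) in males and females, Zic2 0.07 and 0.04, and Lhx1 0.05 and -0.11. The median over all genes tested was 0.00 in both sexes. None of the 14 dorsal, 12 ventral, 11 diencephalic, 15 midbrain and isthmus or 14 hindbrain and cerebellar factors was called between genotypes in male brains, in female brains or in all brains. DESeq2's Wald test called none of these either. Without male Wiz MommeD30/+ brain 3 the male fit called 5 dorsal factors lower, beside 117 (0.682%) of 17155 genes called, in place of 31. Without female Wiz+/+ brain 1 the female fit called 6 dorsal and 5 ventral factors higher and 3 midbrain factors lower, with 1 midbrain and 1 diencephalic factor higher and 1 diencephalic and 1 hindbrain factor lower, beside 1.48% of genes. Without female Wiz+/+ brain 2 it called 1 midbrain factor higher. The 9 signals that act upstream, of which Fgf8 and Wnt1 are also in the midbrain list, gave 0 calls too, with 8 of 9 above 0 in males (median 0.33) and 5 of 9 in females (median 0.06). Wnt8b, a signal of the cortical hem, had a log2 fold change of 0.53 (SE 0.156, edgeR adjusted p = 0.341) in males and 0.52 (SE 0.38) in females, while the feedback inhibitors Spry1 (0.12 and 0.06) and Spry2 (0.06 and -0.08) had smaller values. The antisense RNA Dlx1as had 0.04 (SE 0.0926) and 0.16 (SE 0.334), Emx2os 0.10 (SE 0.1) and 0.25 (SE 0.162).

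Between the sexes, over both genotypes, no factor of the 8 was called, while 6 other dorsal forebrain factors fell in female brains. This comparison was added after the values had been seen. With genotype as a covariate, Emx2 was lower in females by edgeR's adjusted p (log2 fold change -0.36, SE 0.0972, edgeR adjusted p = 0.0333) and En1 higher (0.35, SE 0.0923, edgeR adjusted p = 0.0296), but neither change passed the fold limits. Emx1 (-0.63, SE 0.208, edgeR adjusted p = 0.0667) and Lhx2 (-0.31, SE 0.101, edgeR adjusted p = 0.0674) did not pass. Thus 0 of 8 factors were called, beside 1.43% of 17332 genes, with 5 of 8 at an unadjusted p of at most 0.05, beside 28.2% of genes, and DESeq2's Wald test also called 0. By adjusted p alone, 2 of 8 passed, beside 11.4% of genes. Dlx1 (0.07, 95% interval -0.22 to 0.35) and En2 (0.10, -0.15 to 0.35) had intervals on both sides of 0. These terms average over the genotypes. In Wiz+/+ brains Emx2 and En1 did not overlap between the sexes, and neither did Emx1, Lhx2 or En2. The share of all genes that did not overlap there was not computed, so this separation cannot be weighed. In Wiz MommeD30/+ brains Emx2 and En1 overlapped, with Emx2 at 32.5 and 31.5 CPM in females and 30.8 to 37.3 CPM in males. En1 had 13.2 and 15.5 against 11.6 to 14.2 CPM there.

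Of the 14 other dorsal forebrain factors, 6 fell in female brains, beside 0.762% of all genes called in that direction. Among them were Eomes (-0.93, SE 0.204), which marks intermediate progenitors, and Neurod6 (-0.77, SE 0.211), Tbr1 (-0.65, SE 0.168) and Fezf2 (-0.65, SE 0.174), which act in projection neurons of the cortex. They are named because they were called, and were chosen after their values had been seen. The count was 6 with DESeq2's Wald test (beside 0.820% of genes), and between 1 and 7 when single brains were left out, with 1 without female Wiz+/+ brain 1 (0.866% of genes) and 2 without female Wiz+/+ brain 2 (1.19%). None of 12 ventral forebrain factors was called, with 11 of 12 above 0, while Foxd1 of the diencephalon list, Foxa2 of the midbrain list and Shh of the signals rose (0.40, 0.58 and 0.48), beside 0.669% of all genes called higher. The sum of 7 mesenchyme and meninges markers was 434.4 to 490.8 CPM in males and 523.8 to 583.3 CPM in females, and that of 7 blood markers 651.7 to 1040 and 1122 to 1256 CPM, so neither overlapped between the sexes. Their part in the dorsal forebrain levels was not tested, and since the labels name no litter or dissection, these cannot be told apart from sex.

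In adult cerebellum, En2 was the one factor of the 8 that was higher than in E13.5 brain. In Wiz+/+ males it had 30.8, 36.1 and 33.9 CPM in brains and 189.2, 190.9 and 188.1 CPM in cerebellums, a log2 fold change of 2.51 (SE 0.0478, 5.70-fold, edgeR adjusted p = 3.6e-16). En1 had 11.8 to 14.4 CPM in the brains and 2.74 to 3.18 CPM in the cerebellums and fell by 2.09 on the log2 scale (SE 0.105, edgeR adjusted p = 4.04e-11). These 2 factors, which passed the filter on low counts in each tissue, were both called, 1 higher and 1 lower, beside 69.3% of 16840 genes called between these tissues (36.4% higher, 32.9% lower), which differ in brain part and age together. The other 6 were at or near the detection limit in cerebellum and passed the filter only through the brains, where they are high, so they are described by their counts and no test is given for them.

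Emx2 and Dlx2 had no count in any of the 6 cerebellums, against 21 to 39.7 and 42.3 to 81.2 CPM in the brains. With a floor of 3 counts over the 6 libraries, Emx2 was at least 1928-fold and Dlx2 at least 3218-fold higher in the pooled counts of the 6 male brains. Lhx2 had 1 to 5 counts per cerebellum (19 in all) and Dlx1 2 to 6 (26 in all), so that male brains had 1479-fold more Lhx2 (95% counting interval 946.7 to 2456) and 943-fold more Dlx1 (643.5 to 1444). Dlx1as, which overlaps Dlx1 on the other strand, had 7 to 22 counts per cerebellum, more than Dlx1 itself. Emx1 had 0 to 6 counts per cerebellum (22 in all), 124.7-fold below male brain (82.2 to 199.2), and Gbx2 0 to 5 (11 in all), 272.8-fold below (152.3 to 547). These intervals cover counting error only.

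The Engrailed paralogs, close to each other in whole E13.5 brain, stood far apart in adult cerebellum, where brain part and age differ together. The ratio of En2 to En1 per kb of exon was 1.36 to 2.01 over the 10 brains, with a median of 1.88, and 43.9 to 61.1 over the 6 cerebellums, with a median of 49.2. With 52 ± 2.62 CPM per kb (SD, n = 6), cerebellar En2 stood above the mean level of every one of the 8 factors in brain. The ratio of Dlx1 to Dlx2 per kb was 1.16 to 1.42 in brains.

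**Figure D5:**
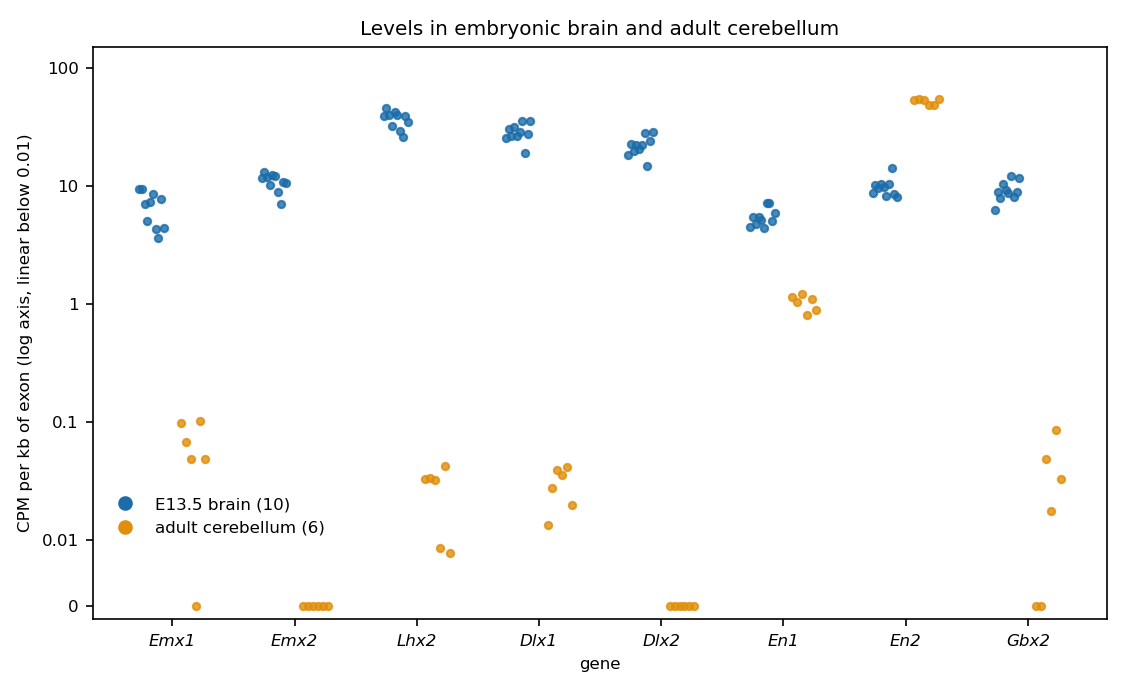
CPM per kb of exon of each factor in the 10 E13.5 brains and the 6 adult cerebellums, on a log axis that is linear below 0.01 so that values of 0 can be shown. En2 is higher in cerebellum than in brain, En1 lower, and the other 6 do not exceed 0.102 CPM per kb in any cerebellum, with Emx2 and Dlx2 at 0.

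Within cerebellum, the genotypes could be compared for En1 and En2, the 2 factors that passed the filter on low counts. En2 had 189.2, 190.9 and 188.1 CPM in Wiz+/+ and 172, 172.3 and 191.5 CPM in Wiz MommeD30/+ cerebellums, which overlapped (log2 fold change -0.08, SE 0.0363, edgeR adjusted p = 0.222). En1 had 2.97 ± 0.218 and 2.45 ± 0.408 CPM (SD, n = 3 each; log2 fold change -0.28, 95% interval -0.59 to 0.04, edgeR adjusted p = 0.324). The quasi-likelihood test called 0 of 2, beside 0.832% of 15979 genes, with 1 of 2 (En2) at an unadjusted p of at most 0.05, beside 19.9% of genes, and DESeq2's Wald test called 0. Wiz itself was not called in this edgeR fit, since its change lay within the fold limits (log2 fold change -0.50, edgeR adjusted p = 9.9e-08). A lack of calls in cerebellum is therefore not a lack of change. The sum of 7 blood markers was 159.2 to 247.7 CPM in Wiz+/+ and 288.8 to 525.6 CPM in Wiz MommeD30/+ cerebellums, and its part in the En values was not tested. The genotype by tissue term called neither gene, beside 0.260% of 17337 genes.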

How the data were processed

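PolyA RNA libraries were made with an Illumina TruSeq RNA kit. Per the study's methods and the submitters' processing notes, the authors mapped single-end reads to mm10 with TopHat2 2.0.11 and counted exon reads per Ensembl gene with HTSeq 0.6.1. The authors deposited these counts unnormalized, as 1 table per sample. The annotation release, strand setting and overlap mode are not given in the sources used here. Wiz ChIP-seq samples were not analysed here.

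Symbols, positions and exon lengths came from GENCODE M21 (GRCm38), which held 40254 of 41388 gene identifiers. CPM values were scaled by 1 TMM fit over 16 samples, and for levels between genes were divided by the union of a gene's exons. Fits used the samples of 1 comparison at a time and edgeR 4.0.16 under R 4.3.3: TMM, filterByExpr (minimum count 10), the quasi-likelihood test, and Benjamini-Hochberg adjustment across the genes that passed the filter. Calls needed an adjusted p no higher than 0.05 and a fold below 0.7 or above 1.3, the limits of the study's methods. Interaction terms had no fold limit. SE is the log2 fold change over the root of F, and 95% intervals use the t distribution. The program the study used, DESeq, was not installed. Log2 values for variation and relations used a prior count of 2. Relations were tested by exact permutation within groups, two-sided. Descriptions were computed in Python 3.11.15 (scipy 1.17.1, pandas 2.3.3, numpy 2.4.6). The fits were tested on simulated counts.

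The 8 genes and the gene lists were chosen with earlier results of these data known. Named genes were the 8 factors, the 3 nearest to each by r, members of other lists that were called or that were highest in Wiz+/+ brain, and Wiz, and some of these are not reported here. Alternatives were DESeq2 1.42.0 (Wald test and size factors), no filter, an average count of at least 50, no fold limit, replicate number as a block, longest transcripts, total counts, a prior count of 0.5 and leaving out each sample. The comparison of the sexes and the relations between factors were added after the data were seen. Replicates are separate animals in the study's methods, and the smallest library, of 16386029 counts, still had 354 counts of Emx1.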

Additional observations from a re-analysis of the deposited data

How the results depend on the processing

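Of the values recomputed under alternatives, 694 for single genes or counts of all genes and 190 for main results stayed within set limits, 20 changed sign and 15 passed a threshold they had missed. For single genes the limits were the same direction and side of the threshold. For counts and for the SD between replicates they were a change of at most 1.5 times. For the mean forebrain percentage the limit was the SD between brains. Another 30 counts over all genes and 11 values for main results moved by more than those limits. The tissue calls of En1 and En2 stood in every alternative run. The fit with replicate number as a block called 0 members in each genotype comparison and changed no member's call. It put En2 in male brains at -0.00559, against 0.0085 in the main fit, which is a change of sign. Same-numbered samples had a mean correlation of deviations of -0.0978 in male brains, -0.0636 in female brains and -0.0472 in cerebellums. With 2 or 3 pairs per comparison, these values cannot decide whether the numbers pair the samples. DESeq2's Wald test called 2 members in female brains, and fits without single brains called 0 to 5. In the sex comparison, which was chosen after seeing the data, 2 members were called without a fold limit, beside 11.4% of genes. Without single brains 0 to 2 members were called, beside 147 to 297 of all genes. With no filter on low counts 1 member was called (Emx1), and the share over all genes in that fit is not given here. Leaving out single brains also changed signs: the male log2 fold changes ran from -0.12 to 0.018 (Emx2), -0.019 to 0.12 (En1) and -0.065 to 0.10 (En2), and the female ones from -0.18 to 0.73 (Dlx1), -0.085 to 0.82 (Dlx2) and -0.24 to 0.35 (Gbx2). Over all brains Emx1 ran from -0.16 to 0.22. The genotype by sex term ran from -0.27 to 0.65 (Dlx1), -0.21 to 0.70 (Dlx2) and -0.57 to 0.032 (Gbx2), and the sex term from -0.11 to 0.23 (Dlx1) and -0.059 to 0.18 (En2). The SD between replicates ran from 0.159 to 0.332 for Dlx1 and 0.131 to 0.315 for Dlx2. The cause was not tested, beyond the smaller number of samples. Counts of all genes called changed by over 1.5 times as follows: in male brains from 31 to 175 with no filter, 20 without Wiz+/+ 1 and 117 without Wiz MommeD30/+ 3; in female brains from 19 to 32 (Wald), 3 (block), 261 and 40 without Wiz+/+ 1 and 2, and 0 without either Wiz MommeD30/+ brain; over all brains from 61 to 101 with no filter; for genotype by sex from 0 to 1 (Wald) and 13 without female Wiz+/+ 1; for sex from 248 to 109 (Wald), 139 at an average count of at least 50, 1968 with no fold limit, 147 without male Wiz+/+ 1 and 151 without female Wiz+/+ 1; in cerebellum from 133 to 80 (Wald), 211 with no filter, 839 with no fold limit, 70 without Wiz+/+ 3 and 83 without Wiz MommeD30/+ 1; for genotype by tissue from 45 to 121 (Wald) and 14 to 103 without single samples. With longest transcripts in place of exon unions, forebrain factors made up 84.8% of the summed level.

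Depth limits the 6 factors near 0 in cerebellum, and 2 brains per female group limit every female test.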

Other observations

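Several factors of other regional lists were well above detection in adult cerebellum. Zic1 and Zic2, zinc finger factors of cerebellar granule cells, had 261.4 to 316.2 and 46.3 to 70.6 CPM in E13.5 brains and 1054 to 1181 and 242.6 to 290.9 CPM in cerebellums (log2 fold changes between Wiz+/+ males 2.03, SE 0.0412, and 2.34, SE 0.0504, both called by edgeR). Pax6 (0.56, SE 0.0428), which granule cells also use, and Neurod2 (0.50, SE 0.0656) were the 2 of 14 dorsal forebrain factors that rose. Eomes, a cortical progenitor factor that also marks unipolar brush cells of the cerebellum, had 50.8 to 67.8 CPM in cerebellums and was lower than in brain by edgeR's adjusted p but within the fold limits (log2 fold change -0.22, SE 0.0663, edgeR adjusted p = 0.00699). Lhx1, which Purkinje cells express, had 85.2 to 92.2 CPM in cerebellums and 85.5 to 124.1 CPM in brains (-0.10, SE 0.0472, not called). Of 12 ventral forebrain factors, 2 passed the filter on low counts among cerebellums. These genes were chosen after their values were seen.

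Within cerebellum, 9 of 9 dorsal forebrain factors that passed the filter lay below 0 in Wiz MommeD30/+ (median log2 fold change -0.18, beside -0.00311 over all genes), with 0 called. Other lists lay mostly below 0 too, with 5 of 6 hindbrain and cerebellar factors (median -0.10), 5 of 6 embryonic neural markers (median -0.25, smallest edgeR adjusted p = 0.0032), 3 of 4 diencephalic and 2 of 2 ventral factors, also with 0 called, while 3 of 6 midbrain and isthmus factors did. Of the 4 blood markers tested, 3 were called higher (median 0.86), and their part in these values was not tested. Among the dorsal factors Eomes had the smallest adjusted p (-0.26, SE 0.0565, edgeR adjusted p = 0.0141, within the fold limits), with 63, 67.8 and 66.7 CPM in Wiz+/+ and 52.7, 61.6 and 50.8 CPM in Wiz MommeD30/+.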
